A study of Mus musculus with 6 samples.

Results

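The genes described here are 10 members of the fibroblast growth factor (FGF) pathway, taken by symbol from a table of 55487 genes measured in mouse dental epithelium. They are the receptors *Fgfr1*, *Fgfr2*, *Fgfr3* and *Fgfr4*, the Sprouty genes *Spry1*, *Spry2* and *Spry4*, the phosphatase gene *Dusp6*, and the transcription factor genes *Etv4* and *Etv5*. The rule that chose them names symbols and no measured value, although it was written with earlier results of these data known, and all 10 were found. RNA-seq was performed on epithelium dissected from mandibular first molars (M1) at PN2.5, the stage at which the epithelial root sheath of the furcation forms, in 3 control and 3 cKO libraries. Control mice were *Wnt10a* fl/fl, with both *Wnt10a* alleles floxed (labelled flox/flox) and no Cre, and cKO mice were *K14-Cre;Wnt10a* fl/fl, so that every mouse of either group carried the floxed alleles. Cre was driven by the keratin 14 promoter, which is active in epithelial cells and not in mesenchyme, and no group carried *K14-Cre* without the floxed alleles. Each library was a pool of the dental epithelium of 4 molars according to the design text, while the methods of the study name another number. The methods of the study call the libraries 3 pairs of biological replicates and do not say what pairs them. How many animals gave molars to a pool is not given in the sources used here. The tests measure the spread between pools and not between animals. The comparison asks how these genes differed when epithelial *Wnt10a* was deleted.

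FGFs bind receptor tyrosine kinases on the cell surface, with heparan sulfate as a cofactor, and the receptors signal through the adaptor FRS2 and RAS to the kinase ERK. ERK activity induces *Etv4* and *Etv5*, which encode ETS transcription factors of the PEA3 group, and also the inhibitors that limit it, namely the Sprouty proteins, which act upstream of ERK, and DUSP6, which dephosphorylates ERK. In the developing tooth FGFs pass signals between epithelium and mesenchyme, and the IIIb splice form of FGFR2 is the epithelial receptor for FGFs made by the mesenchyme.

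The values are TPM, a relative abundance in which each gene's reads are divided by its length, so that levels of different genes can be compared within a library. The libraries summed to between 983952 and 993946 TPM, and 20185 to 23203 genes were above 0. How deeply each library was sequenced cannot be read from TPM, and no counting error is given. *Wnt10a*, the targeted gene, was at 56.0, 51.2 and 57.9 TPM in the control libraries and at 22.7, 21.8 and 32.2 TPM in the cKO libraries, in which its mean was 46.5% of the control mean. The enamel gene *Amelx* took 8.65% of the TPM of cKO library 2 and up to 20.6% of the others. The summed TPM of 7 ameloblast markers, *Amelx* among them, was 200230 to 239330 in control against 96153 to 208556 in cKO libraries. The summed TPM of 10 epithelial markers was 5404 to 7317 in control against 4901 to 6883 in cKO libraries, that of 11 markers of dental mesenchyme and odontoblasts was 3443 to 7008 and 4605 to 5229, that of 6 endothelial markers was 67.7 to 108.5 and 56.3 to 78.8, that of 9 blood and immune markers was 1369 to 2029 and 1204 to 1321, and that of 8 skeletal muscle markers was 5.69 to 6.64 and 3.77 to 7.80. The libraries labelled as dental epithelium thus also held mesenchymal and blood transcripts, and which cells the FGF pathway transcripts came from was not tested. In such bulk samples fewer cells of a type and less RNA per cell cannot be told apart.

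The members lie on 10 different chromosomes. In the GENCODE annotation of GRCm38, *Fgfr1* (ENSMUSG00000031565) lies on chromosome 8 from 25513654 to 25575718 on the plus strand, and *Fgfr3* (ENSMUSG00000054252) on chromosome 5 from 33721674 to 33737068 on the plus strand. *Spry1* (ENSMUSG00000037211) lies on chromosome 3 from 37639947 to 37644598 and *Spry2* (ENSMUSG00000022114) on chromosome 14 from 105891947 to 105896819, each with 2 exons. *Dusp6* (ENSMUSG00000019960) has 3 exons and lies on chromosome 10 from 99263231 to 99267489. *Etv4* (ENSMUSG00000017724) on chromosome 11 from 101769742 to 101785371 and *Etv5* (ENSMUSG00000013089) on chromosome 16 from 22381309 to 22439719 have 13 exons each in their longest transcript.

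*Fgfr2* (ENSMUSG00000030849) is annotated on the minus strand of chromosome 7 from 130162451 to 133123350. Of its 27 annotated transcripts, 1 runs far beyond the end that RefSeq gives the gene, and shorter overruns were not counted. The annotated stretch takes in 69 other genes of the table, none of which lies inside the RefSeq gene. Its annotated transcripts range from 335 to 4429 bases and 8 are retained introns, and the table holds 1 value for all of them. The TPM therefore do not show which *Fgfr2* transcripts, or which splice form, the reads came from.

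Promoter windows, from 250 bases before to 50 bases after the annotated start, were read from RefSeq for GRCm38.p6. They were found for 7 of the 10 members, and not for *Fgfr1*, *Etv4* and *Spry4*. The windows were searched on both strands for AGGAAG, a core that ETS factors of the PEA3 group bind (CTTCCT when it lies on the other strand). Of 32851 promoter windows of the same length in the table, 35.35% held it, as did 4 of the 9 windows of the members, those of *Fgfr2*, *Dusp6* and *Fgfr4* and 1 of the 2 of *Etv5*. The windows of *Spry1*, *Spry2* and *Fgfr3* did not hold these letters. The windows of *Fgfr2*, the member with the largest difference between the groups, at chr7:130266759-130267058 on the minus strand, and of *Dusp6*, a gene that ETS factors are known to induce, at chr10:99262981-99263280 on the plus strand, are shown 5′ to 3′ with the matches in capitals.
Fgfr2 promoter: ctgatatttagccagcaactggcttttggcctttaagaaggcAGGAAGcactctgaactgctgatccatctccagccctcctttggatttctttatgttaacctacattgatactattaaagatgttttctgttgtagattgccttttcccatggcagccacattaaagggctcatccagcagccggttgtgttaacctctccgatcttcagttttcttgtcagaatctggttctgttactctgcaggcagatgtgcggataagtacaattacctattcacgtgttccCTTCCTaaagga
Dusp6 promoter: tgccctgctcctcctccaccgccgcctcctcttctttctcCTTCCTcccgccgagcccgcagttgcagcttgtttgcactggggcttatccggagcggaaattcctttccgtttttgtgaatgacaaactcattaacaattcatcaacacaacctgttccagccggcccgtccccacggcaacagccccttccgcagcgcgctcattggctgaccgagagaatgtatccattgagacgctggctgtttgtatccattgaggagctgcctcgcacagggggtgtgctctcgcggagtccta
The *Fgfr2* window held the motif once on each strand and the *Dusp6* window once, on the reverse strand. The GC content was 43.7% in the *Fgfr2* window and 57.3% in that of *Dusp6*, against a median of 52.7% over all windows, and 18.2% of all windows had less GC than that of *Fgfr2*. A match is a description of the letters and no binding was measured.

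The 10 genes covered a wide range of levels. *Fgfr2* had the highest mean over the 6 libraries, 602.7 TPM, and ranked 190 of all 55487 genes, and *Fgfr1* followed at 314.6 TPM and rank 328. The lowest *Fgfr1* value, 203 TPM, was above every value of the other 8 genes, the highest of which was 24.1 TPM for *Etv4*. *Etv4*, *Dusp6*, *Etv5*, *Spry1* and *Spry2* came next, with means of 19.3, 16.6, 15.6, 10.6 and 9.64 TPM, and each of them overlapped its neighbour in this order. *Fgfr3*, with a mean of 3.75 TPM, lay between 1.92 and 6.53 TPM, below every value of *Spry2*. *Spry4* lay between 1.02 and 1.39 TPM, below every value of *Fgfr3*. *Fgfr4* was at 0.02 TPM in each control library, at 0.03 TPM in cKO library 1 and listed at 0 in the other two, and was not tested because its mean was under 1 TPM.

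**Figure D1:**
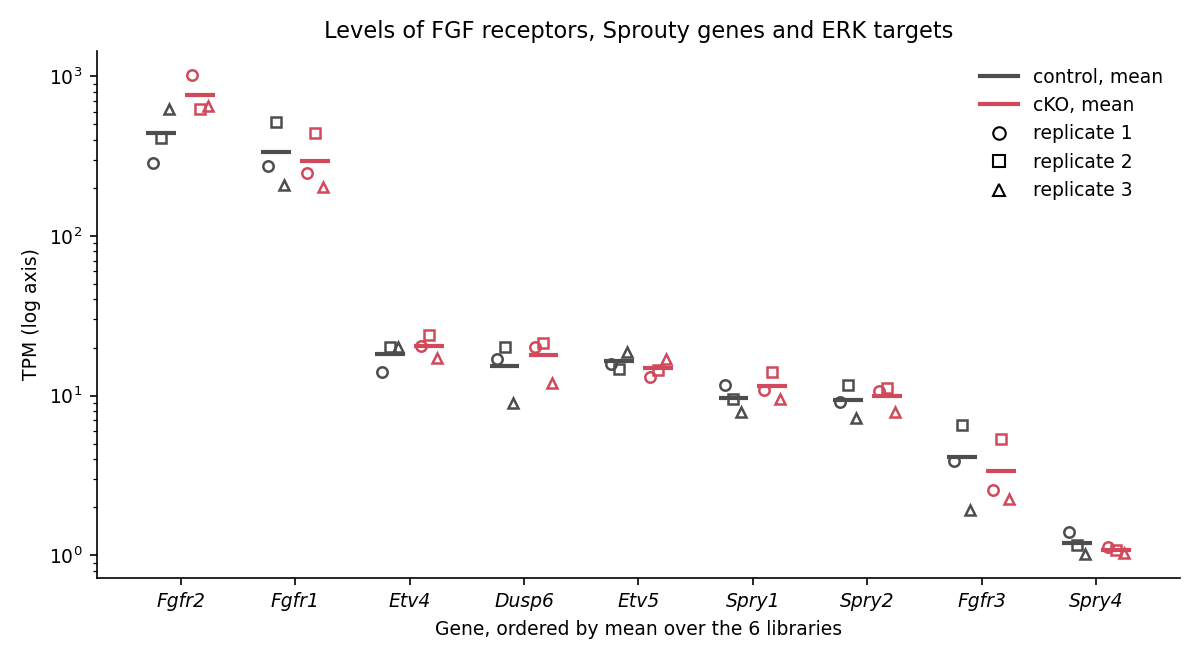
TPM (log axis) of the 9 members whose mean reached 1 TPM, ordered by their mean over the 6 libraries; each symbol is 1 library, its shape gives the replicate number, and bars are group means. The receptors *Fgfr2* and *Fgfr1* lie above 200 TPM in every library and the other genes below 25 TPM, and only *Fgfr2* shows no overlap between control and cKO.

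Among the receptors, *Fgfr2* was higher in cKO. It was at 285, 410 and 621 TPM in control libraries 1, 2 and 3 and at 1024, 626 and 651 TPM in cKO libraries 1, 2 and 3. Every cKO library was above every control library, but control library 3 and cKO library 2 were only 621.03 and 625.86 TPM, and cKO library 1 stood far above the other two. The mean was 439 ± 170 TPM in control against 767 ± 223 TPM in cKO (SD, n = 3 each), 175% of the control mean (exact two-sided permutation test, p = 0.1, which is the lowest that 3 libraries a group allow). In limma, fitted to log2(TPM + 1) of the 13719 genes whose mean reached 1 TPM, the log2 difference was 0.84 (standard error 0.32, 95% interval 0.09 to 1.59) and the unadjusted p was 0.0328. It met the criteria that the methods of the study give for a difference, a p-value below 0.05 and a difference of more than 20% of the control mean, but not the adjustment over all genes tested (adjusted p of 1.00, and between 0.507 and 1.00 over 16 alternative fits).

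The direction of *Fgfr2* was the same in all 16 alternative fits, with a log2 difference of 0.57 to 1.13, and the criteria were met in 10 of them. They were missed under quantile normalization (0.70, unadjusted p of 0.0615 from limma), under median-ratio scaling (0.92, unadjusted p of 0.0627), when each library was rescaled without *Amelx* and *Ambn* (0.76, unadjusted p of 0.0634), and without control library 1 (0.57), control library 2 (0.83) or cKO library 1 (0.61). Under these 3 scalings, and after correction for length and GC content, the values of the groups overlapped.

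*Fgfr2* was also compared with all other tested genes by the root mean square difference of log2(TPM + 1) values, each centred on its own mean over the 6 libraries. The nearest genes were the long non-coding RNA *D130009I18Rik* at 0.086, *Cmss1* at 0.109 and the long non-coding RNA *Gm19951* at 0.112, where the median over all genes was 0.723. They lie on chromosomes other than that of *Fgfr2*. *Cmss1*, a protein-coding gene, was at 1431, 1907 and 3205 TPM in control and at 4256, 2737 and 3166 TPM in cKO, with the same lowest and highest libraries as *Fgfr2*. The ratio of *Fgfr2* to *Cmss1* stayed between 0.194 and 0.240 in the 6 libraries, a 1.24-fold range, while *Fgfr2* itself spanned a 3.59-fold range. *Cmss1* was chosen out of all tested genes for its likeness to *Fgfr2*, which fixes a narrow ratio. What these genes have in common was not tested, and gene-level TPM do not show where in *Fgfr2* the reads lay.

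*Fgfr1*, the second most abundant receptor gene, was at 276, 516 and 209 TPM in control and at 246, 438 and 203 TPM in cKO. Library 2 was the highest and library 3 the lowest of both groups, and the groups overlapped over most of their range. The log2 difference was -0.15 (95% interval -1.08 to 0.79).

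*Fgfr3*, which *Fgfr1* exceeded 70.3-fold to 108.8-fold within each library, was at 3.92, 6.53 and 1.92 TPM in control and at 2.56, 5.34 and 2.24 TPM in cKO. Again library 2 was highest and library 3 lowest in both groups. The log2 difference was -0.19 (95% interval -1.18 to 0.80), and neither *Fgfr1* nor *Fgfr3* met the criteria.

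The makeup of the receptors was followed as shares of their summed TPM, which do not depend on how a library is scaled. *Fgfr2* made up 50.5%, 44.0% and 74.7% in control libraries 1, 2 and 3 and 80.4%, 58.5% and 76.1% in cKO. The cKO mean was higher by 15.3 percentage points (71.7% ± 11.6 against 56.4% ± 16.2, SD, n = 3 each), but control library 3 lay above cKO library 2 (exact two-sided permutation test, p = 0.2). The difference was 9.11 points without control library 2 and 24.5 points without control library 3. *Fgfr2* exceeded *Fgfr1* in 5 of the 6 libraries, the exception being control library 2, with ratios of 0.794 to 2.97 in control against 1.43 to 4.16 in cKO. The sum of the 4 receptors was 564, 932 and 832 TPM in control against 1273, 1070 and 856 TPM in cKO, and the groups overlapped (exact two-sided permutation test, p = 0.2). *Fgfr3* made up at most 0.700% and *Fgfr4* at most 0.00354% of the receptor TPM in any library.

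**Figure D2:**
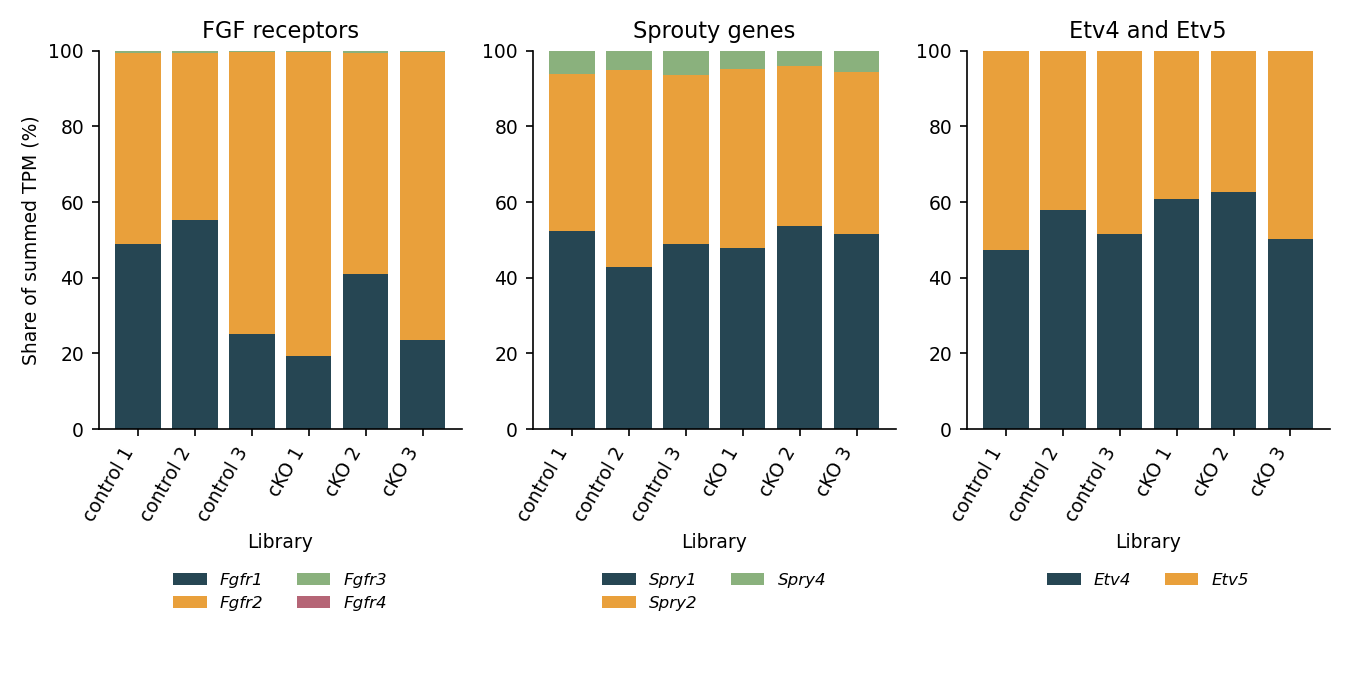
Stacked bars give the share (%) of each gene in the summed TPM of its family for each of the 6 libraries: FGF receptors on the left, Sprouty genes in the middle, *Etv4* and *Etv5* on the right. The *Fgfr2* share runs from 44.0% to 74.7% in control and from 58.5% to 80.4% in cKO, while *Spry1* and *Spry2* each hold between 41.3% and 53.6% of the Sprouty TPM in every library.

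The Sprouty genes, which encode feedback inhibitors of receptor tyrosine kinase signalling, overlapped between the groups and did not meet the criteria. *Spry1* was at 11.6, 9.58 and 7.94 TPM in control and at 10.8, 14.2 and 9.55 TPM in cKO, with cKO library 2 the highest and control library 3 the lowest. Its log2 difference was 0.22 (95% interval -0.31 to 0.75). *Spry2* was at 9.16, 11.6 and 7.25 TPM in control and at 10.7, 11.2 and 7.90 TPM in cKO, so that library 3 was the lowest of both groups. Its log2 difference was 0.09 (95% interval -0.47 to 0.64). *Spry4* was at 1.39, 1.16 and 1.02 TPM in control and at 1.12, 1.08 and 1.03 TPM in cKO, a log2 difference of -0.07 (95% interval -0.65 to 0.50). The 3 genes together gave 22.2, 22.4 and 16.2 TPM in control against 22.6, 26.4 and 18.5 TPM in cKO.

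Within the Sprouty genes, *Spry2* made up 41.3%, 52.0% and 44.7% of their TPM in control against 47.3%, 42.4% and 42.7% in cKO, a difference of -1.87 percentage points (exact two-sided permutation test, p = 0.7). *Spry4* made up 4.09% to 6.29% in all 6 libraries. Under quantile normalization *Spry1* and *Spry2* did not overlap between the groups, and without control library 3 *Spry4* did not. None of them met the criteria there. The share of all genes without overlap in these fits is not given, and leaving out 1 library makes separation easier. *Spry4* also lay close to the filter at a mean of 1 TPM. The cause was not tested.

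*Dusp6*, the ERK phosphatase gene, was at 16.9, 20.1 and 9.0 TPM in control and at 20.3, 21.5 and 12.0 TPM in cKO. Library 2 was highest and library 3 lowest in both groups, and control libraries 1 and 2 lay within the range of the cKO libraries. The log2 difference was 0.24, with a 95% interval of -0.56 to 1.04.

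*Etv4* was at 14.04, 20.2 and 20.2 TPM in control and at 20.4, 24.1 and 17.1 TPM in cKO, with the lowest value in control library 1 and the highest in cKO library 2. The log2 difference was 0.17 (95% interval -0.34 to 0.69). *Etv5* was at 15.7, 14.7 and 18.9 TPM in control and at 13.1, 14.4 and 16.95 TPM in cKO, and library 3 was the highest of both groups. Its log2 difference was -0.14 (95% interval -0.58 to 0.30). *Etv5* made up 52.7%, 42.0% and 48.3% of the TPM of these 2 genes in control against 39.2%, 37.3% and 49.8% in cKO, a difference of -5.57 percentage points with overlapping groups (exact two-sided permutation test, p = 0.3). It was -3.05 points without control library 1, -3.18 without cKO library 2, -8.42 without control library 2 and -9.41 without cKO library 3.

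Of the 9 members tested, *Fgfr2* alone met the criteria, in the direction in which 1.55% of all tested genes did, and no member met them in the direction lower in cKO, in which 2.47% of all genes did. *Fgfr2* was also the only one of the 9 whose groups did not overlap, against 3.51% of all genes with every cKO library higher and 6.13% with every cKO library lower. Without cKO library 3, the groups of *Dusp6*, *Etv4* and *Etv5* did not overlap either, though none of them met the criteria there. Separation is easier to reach with 1 library fewer, and the share of all genes without overlap in that fit is not given. No member passed an adjusted p of 0.05, as 2 of the 13719 genes did (0.0146%). The log2 difference was positive for 5 members and negative for 4, and their median was 0.09 beside -0.07 over all tested genes. The intervals of the 8 members other than *Fgfr2* all included 0, and the narrowest, that of *Etv5*, still allowed a log2 difference from -0.58 to 0.30.

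**Figure D3:**
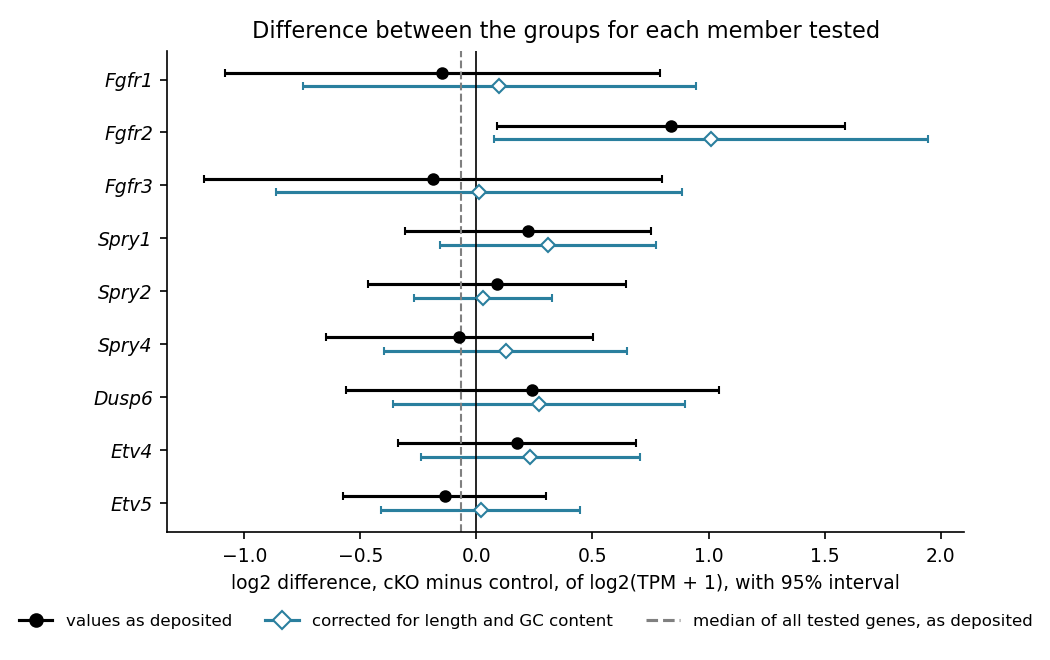
Log2 difference between cKO and control (points) with 95% intervals from limma for the 9 members tested, from the deposited values (black circles) and corrected for length and GC content (open blue diamonds); the dashed line is the median of all tested genes, -0.07. The *Fgfr2* interval, 0.09 to 1.59, is the only one as deposited that excludes 0, and after correction all 9 estimates are positive.

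Differences across the whole table followed transcript length, and the members were read against that trend. Over 10 groups of protein-coding genes of equal size, the median log2 difference ran from 0.17 in the group with the shortest longest transcripts to -0.30 in that with the longest. *Fgfr1*, *Spry4*, *Fgfr3* and *Etv5*, the 4 members with a negative difference, have longest transcripts of 5041, 4755, 4245 and 3975 bases, and those of *Spry2*, *Etv4*, *Spry1* and *Dusp6* measure 2087, 2395, 2773 and 2796 bases. Within its own length group *Fgfr1* was higher than 55.2% of genes, *Spry4* than 68.1%, *Fgfr3* than 39.1% and *Etv5* than 49.8%. *Dusp6*, *Spry1*, *Etv4* and *Spry2* were higher than 89.2%, 87.2%, 84.0% and 68.7% of theirs, and *Fgfr2*, with a longest transcript of 4429 bases, than 99.8%.

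With each library corrected for transcript length and for GC content, the 4 negative differences turned positive, to 0.10 for *Fgfr1*, 0.01 for *Fgfr3*, 0.13 for *Spry4* and 0.02 for *Etv5*. The difference of *Fgfr2* became 1.01 (95% interval 0.07 to 1.94) and still met the criteria. The intervals of the other 8 genes included 0 with and without the correction, so that no direction was established for any of them.

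**Figure D4:**
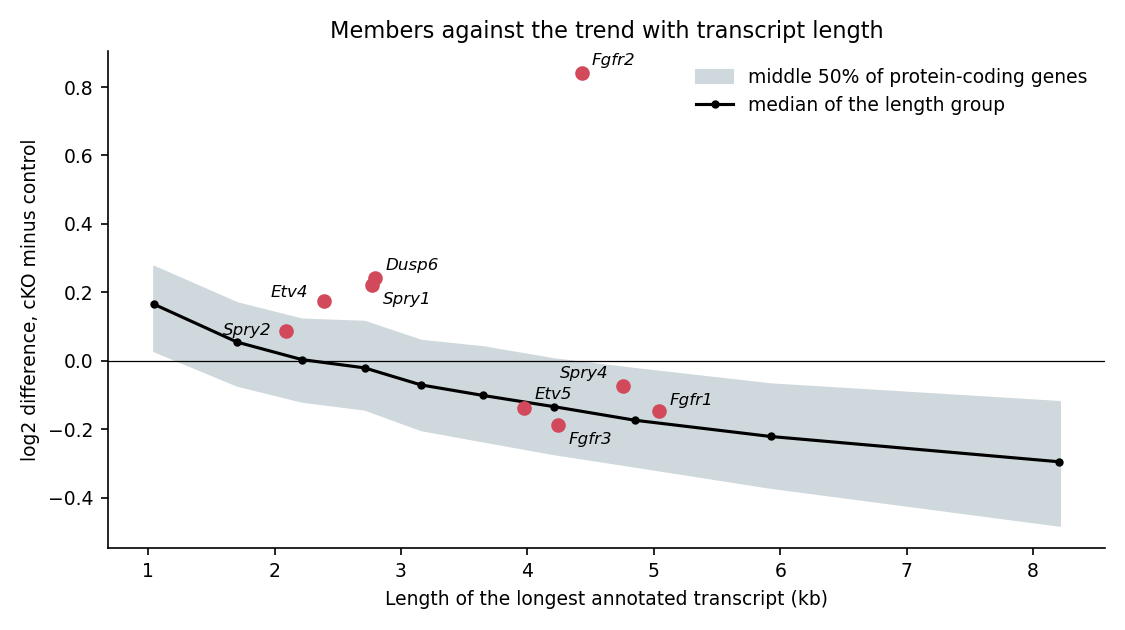
Log2 difference between cKO and control against the length of the longest annotated transcript (kb); the black line joins the medians of 10 length groups of protein-coding genes, the band holds the middle 50% of each group, and red points are the 9 members tested. The line runs from 0.17 to -0.30, *Fgfr2* stands far above it and the 4 members with negative differences lie close to it.

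Several members shared an order of libraries. *Fgfr1*, *Fgfr3*, *Spry2* and *Dusp6* were highest in library 2 and lowest in library 3 of both groups. The same order held for 27.0% of all tested genes, so that 4 of 9 members is a description of a pattern that is frequent in these libraries. *Spry4* was highest in library 1 and lowest in library 3 of both groups, as were 1.09% of all genes.

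The genes around these members were counted from lists written by role. Of the 22 FGF ligands, 6 were tested and 4 were at 0 in every library. *Fgf1* had the highest level, at 16.1, 23.0 and 17.9 TPM in control and at 14.6, 15.7 and 15.6 TPM in cKO (log2 difference -0.28). It did not meet the criteria. It was the 1 tested ligand of 6 with every cKO library lower than every control library, as in 6.13% of all tested genes. The median of the 6 ligands was 0.02 and none met the criteria. Of 9 tested co-receptors and FGF-binding proteins none met the criteria, their median was -0.16, and the most abundant, the heparan sulfate proteoglycan gene *Gpc3*, had a log2 difference of 0.01.

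Inside the cell, none of the 12 docking and adaptor genes and none of the 13 genes of the RAS-ERK cascade met the criteria, with medians of -0.22 and -0.12. The most abundant of these were *Grb2* (log2 difference -0.07), the adaptor that brings the RAS activator SOS to receptors, and *Hras* (0.21). In 1 of the 12 adaptor genes, *Plcg1*, every cKO library was lower than every control library, as in 6.13% of all tested genes. None of 9 other FGF-responsive transcription factor genes met the criteria either, with a median of -0.06. *Egr1* was the most abundant of them and the most variable, at 34.9, 114.7 and 11.1 TPM in control and at 78.6, 66.2 and 65.9 TPM in cKO. In 1 of the 9, *Ets1* (log2 difference -0.45), every cKO library was lower than every control library, again as in 6.13% of all tested genes.

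Among 11 tested feedback inhibitors outside the Sprouty genes, 2 met the criteria, both lower in cKO, and 3 did not overlap between the groups, all lower in cKO, against 2.47% and 6.13% of all tested genes in that direction. *Dusp4*, which encodes a nuclear phosphatase of ERK and related kinases, was at 3.57, 3.52 and 3.22 TPM in control and at 1.48, 1.44 and 1.43 TPM in cKO. The libraries of each group lay close together and far from the other group. limma gave a log2 difference of -0.86 (unadjusted p of 0.0049), and *Dusp4* met the criteria in all 15 alternative fits in which it was tested. These fits share the same libraries, and the lowest adjusted p that limma gave *Dusp4* in any of them was 0.507. At the filter of 5 TPM it was not tested. *Dusp6* exceeded *Dusp4* by 2.80-fold to 5.71-fold in control and by 8.41-fold to 14.9-fold in cKO, a description that follows from the lower *Dusp4* values, for which *Dusp4* was named.

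*Il17rd*, the gene of the membrane inhibitor Sef, was at 9.97, 14.5 and 8.83 TPM in control and at 6.35, 3.52 and 8.15 TPM in cKO. cKO library 3 lay only just below control library 3. limma gave a log2 difference of -0.82 (unadjusted p of 0.0352), and the lowest adjusted p over all fits was 0.507. *Il17rd* met the criteria in 8 of 16 alternative fits, and missed them under quantile normalization (-0.72) and median-ratio scaling (-0.74), after correction for length and GC content (-0.51), and without control library 1 (-0.88) or 2 (-0.63) or cKO library 1 (-0.88) or 2 (-0.53). *Spred2*, which encodes a Sprouty-related inhibitor, was the other gene without overlap, at 10.5, 8.62 and 8.33 TPM in control and at 6.32, 7.85 and 8.08 TPM in cKO. *Rasa1*, a RAS GTPase-activating protein gene and the most abundant of the list, had a log2 difference of 0.23. The median of the list was -0.17.

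Which splice form of *Fgfr2* an epithelial cell makes depends on the splicing regulators ESRP1 and ESRP2. Of 4 regulators listed, 1 met the criteria, lower in cKO, against 2.47% of all tested genes in that direction. *Esrp2* was at 14.8, 23.0 and 15.5 TPM in control and at 8.85, 9.51 and 8.98 TPM in cKO, a log2 difference of -0.86 in limma (unadjusted p of 0.0046), and it met the criteria in all 16 alternative fits. These fits share the same libraries, and the lowest adjusted p that limma gave *Esrp2* in any of them was 0.449. *Esrp1*, the more abundant of the pair, was at 36.8, 56.0 and 35.1 TPM in control and at 32.9, 44.4 and 35.2 TPM in cKO, and the groups overlapped. *Ptbp1*, the most abundant of the 4, had a log2 difference of -0.14. The table does not separate the splice forms of *Fgfr2*.

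None of 9 other receptor tyrosine kinase genes of epithelium met the criteria, but all 9 differences were negative, with a median of -0.39 beside -0.07 over all genes and -0.19 for the list after correction for length and GC content. *Ddr1*, the most abundant, had a log2 difference of -0.39. *Erbb2* and *Erbb3* were lower in every cKO library than in every control library, as were 6.13% of all tested genes. After correction for length and GC content their differences were -0.25 and -0.11. *Fgfr2* differed in sign from these receptors.

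Immediate early genes are transcribed within minutes of ERK activation and of many other stimuli. Of 12 tested, 3 met the criteria, all higher in cKO, against 1.55% of all tested genes in that direction, and the median of the list was 0.61 beside -0.07 over all genes. *Junb*, *Ier2* and *Jund* had log2 differences of 0.90, 0.81 and 0.41, and in each of them every cKO library was above every control library, as in 3.51% of all tested genes. The lowest adjusted p that limma gave each of them in any fit was 0.507. *Jund* met the criteria in all 16 alternative fits and *Junb* and *Ier2* in 11, the 5 misses being the fits without any single library other than control library 2 (0.59 to 0.91 for *Junb* and 0.55 to 0.86 for *Ier2*). *Jund*, the most abundant, was at 146, 130 and 130 TPM in control and at 170, 184 and 185 TPM in cKO. The summed TPM of the list was 367, 773 and 251 in control against 733, 700 and 640 in cKO, so that control library 2 was the highest of all. Their part in the differences of the FGF pathway genes was not tested.

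**Figure D5:**
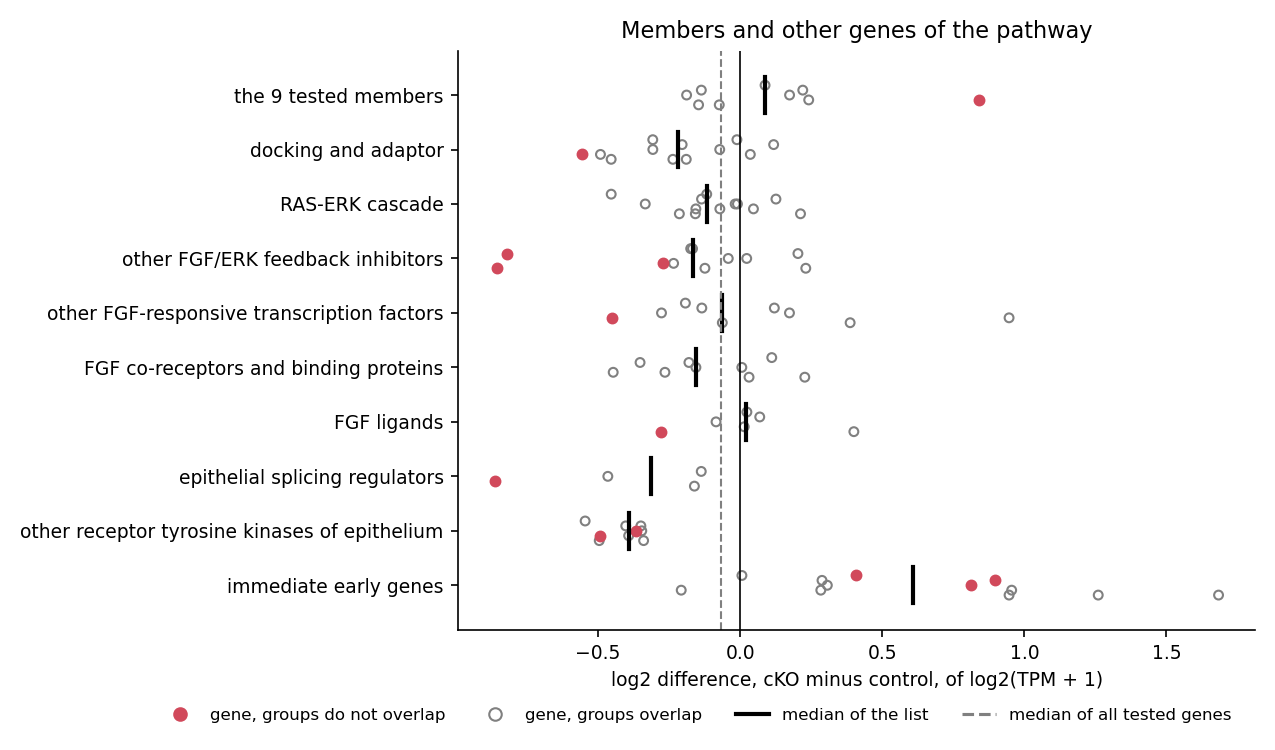
Log2 difference between cKO and control for the 9 members tested and for the tested genes of 9 lists of the FGF pathway and related genes; each circle is a gene, red where the groups do not overlap, black bars are list medians, and the dashed line is the median of all tested genes, -0.07. *Fgfr2* stands to the right of the other members, *Dusp4*, *Il17rd* and *Esrp2* lie between -0.86 and -0.82, to the left of their lists, and the immediate early genes have a median of 0.61.

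Of the tested marker genes, 2 of 6 endothelial and 1 of 8 blood and immune genes met the criteria, all lower in cKO, against 2.47% of all tested genes in that direction. They were the endothelial genes *Cdh5* (log2 difference -0.77) and *Tek* (-0.54), and the haemoglobin gene *Hbb-bs* (-0.43), which met them in 9 of 16, 7 of 15 and 10 of 16 alternative fits. The median was -0.48 for 6 endothelial markers, -0.35 for 8 tested blood and immune markers, -0.50 for 7 ameloblast markers, -0.19 for 9 tested epithelial markers and 0.03 for 11 mesenchyme and odontoblast markers. No marker of the epithelial, ameloblast or mesenchyme lists met the criteria, nor did the 1 skeletal muscle marker tested. All 7 ameloblast differences were negative. In 1 of the 7, *Ambn* (-0.86), every cKO library was lower than every control library, as in 6.13% of all tested genes. Whether the makeup of the pools bears on *Fgfr2*, *Dusp4* or *Esrp2* was not tested.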

How the data were processed

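RNA-seq was performed on 6 pools of dental epithelium. Per the paper's methods, the authors used SeqPrep and Sickle for trimming, HISAT2 for alignment and RSEM for gene abundance, and the submitters' processing notes also name StringTie. Per the paper's methods the unit is FPKM, but every library the authors deposited sums to nearly the fixed total that defines TPM and was used as such. Which genome build and annotation they used is not given in the sources used here, and 99.5% of the gene identifiers were in GENCODE M21 (GRCm38).

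Libraries were grouped by their labels. log2(TPM + 1) was fitted, for the 13719 genes whose mean reached 1 TPM, with limma 3.58.1 (R 4.3.3; lmFit, eBayes with a trend, no block), with Benjamini-Hochberg adjustment over all of them. Differences are on this scale, which understates the change of low genes. A fold difference of group means uses the TPM. Genes were called by adjusted p below 0.05, by the criteria of the methods (unadjusted p below 0.05 and a difference over 20% of the control mean), or by groups that did not overlap. Shares and ratios were compared by exact two-sided permutation tests (scipy 1.17.1), whose smallest p is 0.1. The main fit and the length and GC correction were run on simulated data with independent noise and changes larger than that of any member. That run does not show how well differences of the members' size are found.

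To correct for transcript length and GC content, natural splines (4 degrees of freedom each) were fitted to a library's deviations from the gene means over 13707 genes and subtracted. Alternatives were a pseudocount of 0.1, no filter, a filter at 5 TPM, quantile normalization, median-ratio scaling, rescaling without *Amelx* and *Ambn*, no trend, the replicate block, the length and GC correction without and with the block, and leaving out each library. The paper's methods speak of 3 pairs of replicates without saying what pairs them. In the submitters' labels both groups carry the numbers 1, 3 and 4, given here as replicates 1, 2 and 3. Within replicate numbers, the deviations of a control and a cKO library from the group means correlated by -0.08, 0.29 and 0.40. These values did not settle whether the numbers pair the libraries, so the main fit took them as unpaired and the block was an alternative.

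The members and lists were chosen with earlier results of these data known. Named are the members, *Wnt10a*, the most abundant gene of each pathway list and up to 4 genes of a list that met the criteria, and the 3 genes with the pattern nearest to *Fgfr2*. *Plcg1*, *Spred2*, *Esrp1*, *Erbb2*, *Erbb3*, *Ets1* and *Ambn* were named after their values were seen.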

Additional observations from a re-analysis of the deposited data

How the results depend on the processing

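Of all 13719 genes, 2 passed an adjusted p of 0.05 in limma and 552 met the criteria, of which 38.6% were higher in cKO. The first count was 4 with a pseudocount of 0.1, with quantile normalization, with median-ratio scaling and with the replicate block, 1 without a filter and with the replicate block and correction together, and 2 to 9 when 1 library was left out. The second count was 940 without a filter, 879 when rescaled without *Amelx* and *Ambn*, 1110 when the correction was added to the block, 1315 with the replicate block, and 204 (without cKO library 1) to 1159 (without control library 3) when 1 library was left out. The share higher in cKO was 49.9% under quantile normalization, 50.8% under median-ratio scaling, 17.5% when rescaled and 54.0% after correction for length and GC content. Of the 9 members, 0 met the criteria under quantile normalization, median-ratio scaling or rescaling, and 0 to 1 when 1 library was left out. The correction, with or without the block, gave 0.10 for *Fgfr1*, 0.012 for *Fgfr3*, 0.13 for *Spry4* and 0.018 for *Etv5*, all negative as deposited. Leaving out 1 library gave -0.47 to 0.22 for *Fgfr1*, -0.54 to 0.14 for *Fgfr3*, -0.065 to 0.24 for *Spry2*, -0.078 to 0.49 for *Dusp6*, -0.06 to 0.23 for the median of the members, 9.11 to 24.5 percentage points for the *Fgfr2* share, -9.41 to -3.05 for the *Etv5* share, and -4.22 to 1.11 for the *Spry2* share, positive only without control library 2. The causes were not tested. With the replicate block alone the *Fgfr2* difference kept its value of 0.84 and no member changed its call. The interval of *Fgfr1* was then -0.47 to 0.18, against -1.08 to 0.79 without the block. That of *Dusp6* was -0.12 to 0.60 against -0.56 to 1.04, while that of *Spry4* was wider, -0.68 to 0.54 against -0.65 to 0.50. No interval of a member other than *Fgfr2* excluded 0 with the block. The intervals in the results take the libraries as unpaired. Not every library correlated best with its own number, control library 1 correlating most with cKO library 2 (0.06). The number of libraries, 3 a group, limits the precision, and depth is unknown.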
